A study of Capra hircus with 6 samples.

Results

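The genes described here are 52 genes of the fibrillar extracellular matrix, chosen by gene symbol: 7 fibril-forming collagens, 9 other collagens, 11 proteoglycans and adhesive or associated glycoproteins, 12 genes of elastic fibres and microfibrils, and 13 enzymes and chaperones that modify, trim or cross-link collagen. Of these, 51 carried values and 47 had enough counts to be tested, among 16599 genes with values and 12665 tested in all. P4HA2 was not analysed here, and FBN2 (5 counts over all libraries), MFAP2 (20), ASPN (8) and OGN (8) had too few counts for a test. Fibrillar collagens are made as procollagen chains that are hydroxylated on proline and lysine by the P4HA and PLOD enzymes, folded with the chaperone SERPINH1, secreted, trimmed with the help of PCOLCE, and cross-linked by lysyl oxidases. Small proteoglycans such as decorin sit on the fibrils, versican binds hyaluronan between them, and fibrillins carry elastin and latent TGF-beta. In the testis such a matrix surrounds the seminiferous tubule, where peritubular myoid cells and fibroblasts are known to make much of it.

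RNA of the goat (Capra hircus) cell line mGSCs-I-SB, which the labels call spermatogonial stem cells, was sequenced in 6 libraries from 3 lines. The shCON line carried a control hairpin and is given the genotype WT, the shUCHL1 line carried a hairpin against UCHL1, a ubiquitin hydrolase, and the shHSPA8 line a hairpin against HSPA8, a constitutive HSP70 chaperone. Each line gave 2 libraries, and all cells grew in DMEM/F12 with 10% fetal bovine serum. How many hairpins or clones stood behind a line is not stated in the labels. Nor do they tell whether both libraries of a line are separate cultures, and the p-values below therefore cover library spread that may be technical. The series title sets UCHL1 against HSPA8, and the lines were therefore compared each with shCON and with each other.

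Libraries held 15710532 to 16417274 counts. UCHL1 stood at 405 and 451 CPM (counts over the library total, on the usual CPM scale, with TMM scaling) in shCON and at 94.3 and 97.7 CPM in shUCHL1, and HSPA8 at 4016 and 4112 CPM in shCON and at 2631 and 2528 CPM in shHSPA8. Both targeted transcripts fell, HSPA8 by 0.66 on the log2 scale (edgeR adjusted p = 0.00126) and UCHL1 by 2.16 (edgeR adjusted p = 0.000113), so the HSPA8 knockdown was partial. In shUCHL1 HSPA8 stood at 5252 and 5345 CPM, above shCON (log2FC 0.38, SE 0.07, edgeR adjusted p = 0.0129), which puts it 2.05-fold above shHSPA8. Of 20 germ cell marker symbols, 6 had enough counts to be tested, and the list summed to 17.0 to 25.1 CPM over the 6 libraries. DAZL, ZBTB16, NANOS2, SALL4 and UTF1 carried no values, and GFRA1, the GDNF receptor, stood at 0.180 to 1.08 CPM. ETV5 stood at 9.99 to 13.3 CPM. DDX4 was at 0.428 to 1.95 CPM and did not pass the test in shUCHL1 (log2FC 1.38, SE 0.38, edgeR adjusted p = 0.0521). ID4 was at 1.96 and 3.31 CPM in shCON, 5.80 and 6.36 in shUCHL1, and 10.2 and 8.79 in shHSPA8. Of the 6 tested, 3 (50.0%) were called higher in shUCHL1, beside 8.54% of all tested genes: ID4, RET and TSPAN33. RET was at 0.245 to 1.53 CPM and TSPAN33 at 0.122 to 0.916 CPM. In shHSPA8 only ID4 (16.7%) was called higher, beside 8.66%, and none was called lower in either line. All 13 markers of peritubular myoid cells and fibroblasts were tested, and their sum was 3724 and 4506 CPM in shCON, 1938 and 1990 CPM in shUCHL1, and 3951 and 3567 CPM in shHSPA8. In shUCHL1 7 of those 13 fell and 1 rose, and in shHSPA8 3 rose and 1 fell. In shUCHL1 these are 53.8% lower and 7.7% higher, beside 7.15% and 8.54% of all tested genes. In shHSPA8 they are 23.1% higher and 7.7% lower, beside 8.66% and 6.02%. ACTA2 and TAGLN made up most of the myoid and fibroblast sum. The other 11 summed to 719.6 and 720.1 CPM in shCON, 741 and 734 CPM in shUCHL1, and 922 and 942 CPM in shHSPA8. Within those 11, CNN1 (14.7-fold), DES (14.4-fold), LMOD1 (4.19-fold), THY1 (2.43-fold) and MYLK (2.00-fold) fell in shUCHL1. IGFBP5 rose there, from 114 and 129 CPM in shCON to 246 CPM in both libraries. In shHSPA8 IGFBP5, MYLK and PDGFRB rose and LMOD1 fell. Sertoli cell markers (6 of 14 tested) summed to 184 to 192 CPM in shCON, 136 CPM in both shUCHL1 libraries and 92.5 to 93.8 CPM in shHSPA8. Endothelial markers (5 of 9 tested) summed to 52.7 to 55.1, 13.3 to 13.8 and 11.0 to 11.6 CPM in the same order, leukocyte markers (4 of 9) to 499.6 to 505.7, 175 to 189.8 and 300.4 to 304.7 CPM, and Leydig markers (2 of 8) to 13.4 to 14.7, 17.6 to 21.8 and 17.2 to 17.9 CPM. NR5A1, at 12.3 to 20.3 CPM, made up most of the Leydig sum in every library. STAR stood at 0.855 to 1.45 CPM, and the Leydig markers INSL3 and LHCGR carried no values. The leukocyte markers ADGRE1 and PTPRC and the endothelial markers CLDN5 and ESAM were at 0 in at least 1 shCON library. EMCN and LCP1 made up most of the endothelial and leukocyte sums in shCON, and both genes fell in both knockdown lines. CORO1A fell in shUCHL1 (log2FC -0.94). Other markers of these lists went the other way: VWF rose in shUCHL1 (log2FC 1.32), and KDR (log2FC 1.81) and CD14 (log2FC 0.70) rose in shHSPA8. In shCON VWF rested on 9 and 6 counts and KDR on 7 and 6. The part of these cell type markers in the matrix results below was not tested. In bulk RNA, fewer cells of a type and less RNA per cell cannot be told apart.

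Most tested matrix genes rose in shHSPA8, while in shUCHL1 some rose and some fell. Against shCON, 28 of the 47 tested matrix genes rose in shHSPA8 and 2 fell, beside 8.66% of all tested genes called higher and 6.02% called lower. Their median log2 fold change was 0.59, against -0.0032 over all genes tested. In shUCHL1 12 rose and 8 fell, beside 8.54% and 7.15% of all tested genes, with a median of 0.12 against 0.0094. Set directly against shHSPA8, shUCHL1 had 1 matrix gene higher and 21 lower, beside 6.20% and 8.35% of all tested genes, with a median of -0.35 against 0.0175. A gene is called where edgeR, by its quasi-likelihood test, gave an adjusted p under 0.05 (Benjamini-Hochberg over all 12665 genes). The verbs rose and fell are kept for called genes, and log2FC stands for the log2 fold change, given with its standard error (SE). The comparisons with shCON share the 2 shCON libraries. Of the 47, 39 were called in at least 1 comparison, and COL1A1, COL12A1, ELN, FBLN5, FMOD, LOXL3, MFAP4 and SERPINH1 in none. The counts of calls depend on single libraries, over all tested genes as well as over the matrix genes. Without 1 library at a time the median log2 fold change of the matrix genes was 0.45 to 0.58 in shHSPA8 and 0.02 to 0.18 in shUCHL1. Between the knockdown lines it was -0.41 to -0.36.

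**Figure D1:**
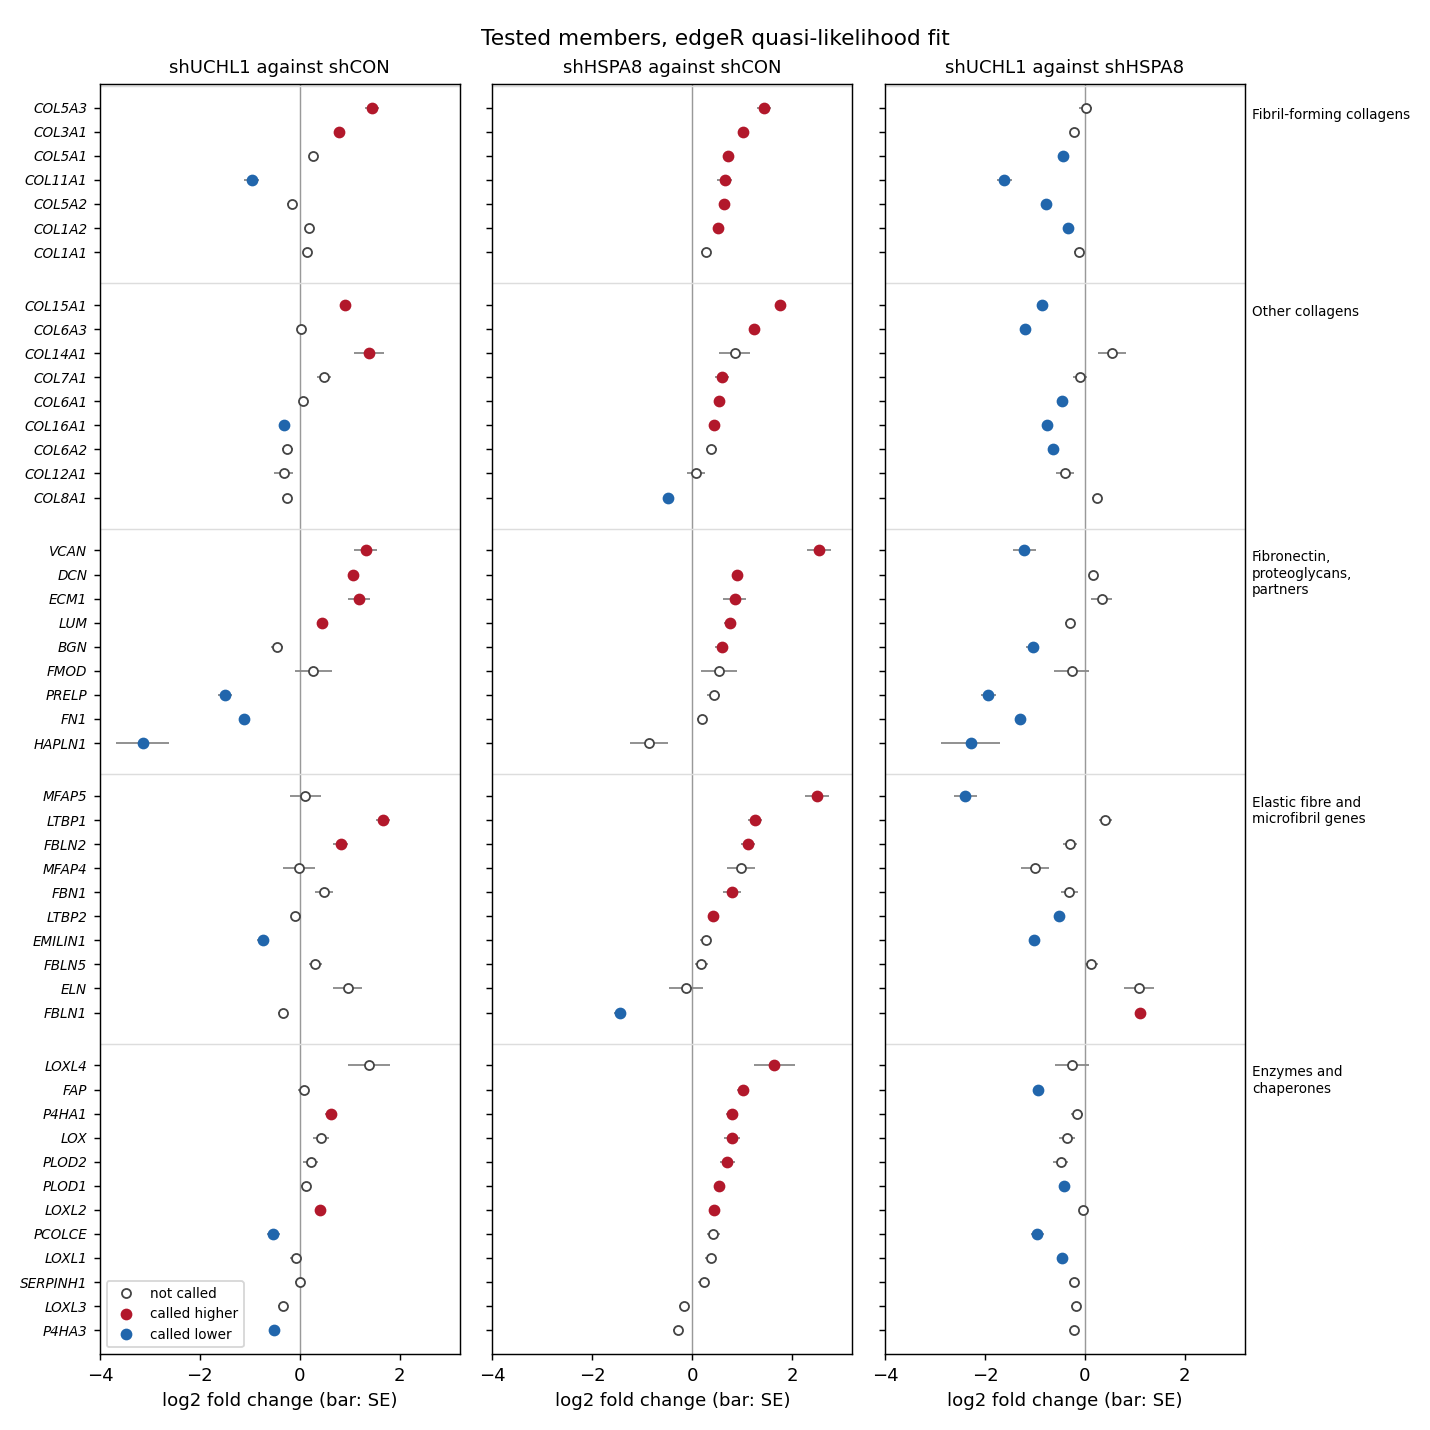
Log2 fold change (horizontal axis, bar: SE) of each tested matrix gene in the 3 comparisons, ordered within its class by the shHSPA8 value. Filled points passed the test (red higher, blue lower) and open points did not: 28 genes are red in the shHSPA8 panel and 12 in the shUCHL1 panel, and the right panel has 21 blue points.

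A few genes made up most of the matrix transcripts. On the deposited FPKM scale, which is per transcript length, the 51 genes summed to 9103 and 9348 in shCON, 10480 and 10670 in shUCHL1, and 12980 and 13020 in shHSPA8, without overlap between lines. The 5 most abundant held 63.8% to 66.4% of that sum in each library. In shCON these were FN1, COL1A1, COL1A2, COL3A1 and SERPINH1, and in shUCHL1 the small proteoglycan DCN stood in the place of FN1. COL3A1, the chain of type III collagen, had rank 4 among the matrix genes in both shCON libraries and rank 1 in all 4 knockdown libraries. FN1, fibronectin, had ranks 1 and 2 in shCON, rank 6 in both shUCHL1 libraries, and ranks 4 and 2 in shHSPA8. VCAN moved from rank 28 in both shCON libraries to 19 and 20 in shUCHL1 and to 16 and 13 in shHSPA8. As shares of all counts, the 51 genes took 4.53% and 4.50% in shCON, 4.83% and 4.87% in shUCHL1, and 6.21% and 6.45% in shHSPA8.

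**Figure D2:**
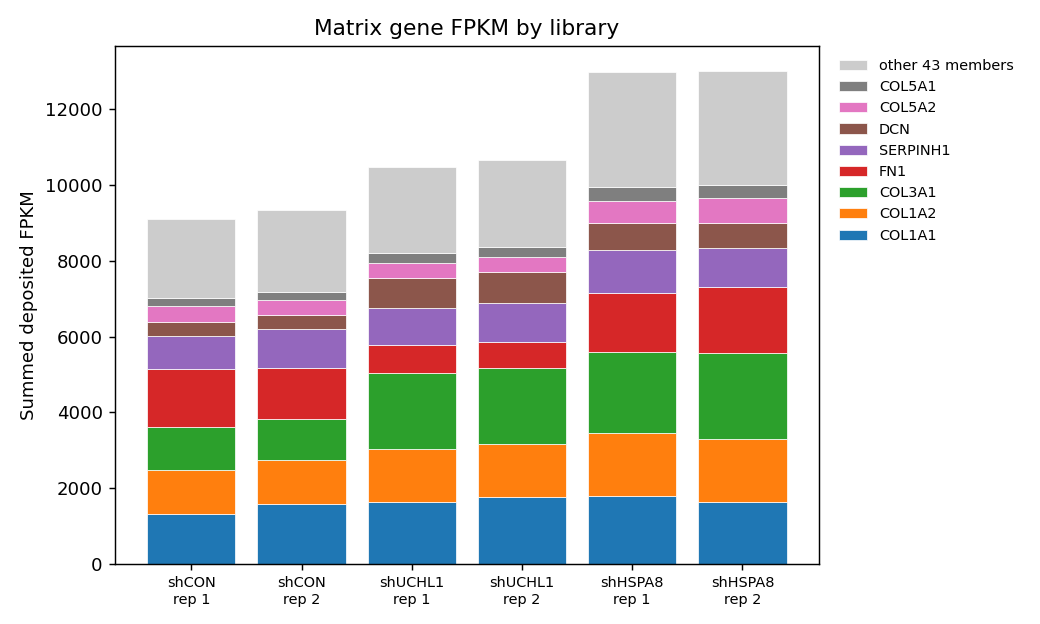
Deposited FPKM summed over the matrix genes in each library (stacked bars from 0). The 8 genes with the largest shares are coloured and the other 43 are grey, and the FN1 band is narrowest in the 2 shUCHL1 libraries, while the total is highest in the 2 shHSPA8 libraries.

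The fibril-forming collagens rose in shHSPA8 in 6 of 7 cases and fell in none, while in shUCHL1 2 rose and 1 fell. Of the class 85.7% rose in shHSPA8, beside 8.66% of all tested genes. In shUCHL1 28.6% rose and 14.3% fell, beside 8.54% and 7.15%. COL3A1 (gene ID 100860938) stood at 6085 and 5638 CPM in shCON, 10208 and 10064 in shUCHL1, and 11389.5 and 12302 in shHSPA8. All 4 knockdown libraries lay above both shCON libraries. The rise was 1.73-fold in shUCHL1 (log2FC 0.79, SE 0.08, edgeR adjusted p = 0.00123) and 2.02-fold in shHSPA8 (log2FC 1.01, SE 0.08, edgeR adjusted p = 0.000346). COL5A3 (gene ID 102186297), the least widespread type V chain, stood at 7.53 and 8.51 CPM in shCON, 19.9 and 23.7 in shUCHL1, and 21.4 and 21.9 in shHSPA8. It was higher in all 4 knockdown libraries, which overlapped with each other. The rise was of like size in shUCHL1 (log2FC 1.44, SE 0.14, edgeR adjusted p = 0.00106) and in shHSPA8 (log2FC 1.43, SE 0.14, edgeR adjusted p = 0.000869). COL5A1 (gene ID 108633220) and COL5A2 (gene ID 102183732) encode the common type V chains, which sit inside type I fibrils and limit their width. COL5A1 was at 739 and 785 CPM in shCON, 914 and 915 in shUCHL1, and 1267 and 1224 in shHSPA8. COL5A2 was at 2706 and 2414 CPM in shCON, 2291 and 2297 in shUCHL1, and 3759 and 4135 in shHSPA8. Both shHSPA8 libraries were above the other 4 for either gene. Both genes rose in shHSPA8, COL5A1 by 0.71 (SE 0.07, edgeR adjusted p = 0.00114) and COL5A2 by 0.62 (SE 0.09, edgeR adjusted p = 0.00415) on the log2 scale. In shUCHL1 neither passed the test (COL5A1 0.26, COL5A2 -0.16 on the log2 scale), and both were lower than in shHSPA8 (COL5A1 -0.45, COL5A2 -0.78, edgeR adjusted p = 0.0105 and 0.00267).

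COL11A1 (gene ID 102170840), a type XI chain that helps start thin fibrils, went in opposite directions in the knockdown lines. It stood at 127 and 101 CPM in shCON, 60.3 and 56.4 in shUCHL1, and 159 and 197 in shHSPA8. The 3 lines did not overlap, with shUCHL1 lowest and shHSPA8 highest. It fell in shUCHL1 (log2FC -0.96, SE 0.15, edgeR adjusted p = 0.00652) and rose in shHSPA8 (log2FC 0.65, SE 0.15, edgeR adjusted p = 0.0273), and set line against line it was 3.06-fold lower in shUCHL1 (log2FC -1.61, SE 0.15, edgeR adjusted p = 0.00136). Of the type I chains, COL1A2 was at 6033 and 6108 CPM in shCON, 6809 and 6932 in shUCHL1, and 8689 and 8745 in shHSPA8, where it rose (log2FC 0.52, SE 0.07, edgeR adjusted p = 0.00308). Its partner chain COL1A1 did not pass the test there (log2FC 0.27, SE 0.10, edgeR adjusted p = 0.126). Over all 6 libraries the FPKM ratio of COL1A1 to COL1A2 ran from 0.990 to 1.33, and that of COL3A1 to COL1A1 was 0.684 and 0.864 in shCON against 1.15 to 1.40 in the knockdown libraries. Some calls of this class ended under another setting, in shUCHL1 for COL11A1 (adjusted p = 0.0607 without shUCHL1 replicate 2). In shHSPA8 this held for COL11A1 (adjusted p 0.0529 to 0.138 without shCON replicate 2, shUCHL1 replicate 1 or 2 or shHSPA8 replicate 2 and in a fit of the 2 lines alone). Between the knockdown lines it held for COL1A2 (adjusted p 0.0636 to 0.226 without shUCHL1 replicate 1 or 2 or shHSPA8 replicate 1 or 2 and with library size scaling) and COL5A1 (adjusted p 0.0776 to 0.15 without shUCHL1 replicate 1 or 2 or shHSPA8 replicate 1). Where 1 library was left out, the other of its line was taken to vary as much as libraries elsewhere.

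Among the 9 other collagens, 5 rose and 1 fell in shHSPA8, and 2 rose and 1 fell in shUCHL1. The shHSPA8 shares are 55.6% higher and 11.1% lower, beside 8.66% and 6.02% of all tested genes. In shUCHL1 they are 22.2% and 11.1%, beside 8.54% and 7.15%. COL15A1 (gene ID 100860925), a collagen with glycosaminoglycan chains found next to basement membranes, stood at 61.7 and 59.4 CPM in shCON, 117 and 109.6 in shUCHL1, and 198 and 213 in shHSPA8. The lines were in 3 separate steps. COL15A1 rose 1.87-fold in shUCHL1 (log2FC 0.90, SE 0.09, edgeR adjusted p = 0.0012) and 3.39-fold in shHSPA8 (log2FC 1.76, SE 0.09, edgeR adjusted p = 7.33e-05). Its difference between the knockdown lines also passed the test (log2FC -0.86, SE 0.09, edgeR adjusted p = 0.00205). COL14A1 (gene ID 102178089), which binds the surface of fibrils, stood at 5.51 and 3.55 CPM in shCON, 13.4 and 10.4 in shUCHL1, and 6.20 and 10.2 in shHSPA8. Here shHSPA8 replicate 1 was close to shCON and the other knockdown libraries were higher. It rose in shUCHL1 (log2FC 1.39, SE 0.30, edgeR adjusted p = 0.0212) and did not pass the test in shHSPA8 (log2FC 0.85, SE 0.31, edgeR adjusted p = 0.116). COL16A1 (gene ID 102172853), another fibril-associated collagen, was at 232 and 249 CPM in shCON, 191 and 197 in shUCHL1, and 336 and 317 in shHSPA8. The ranges of the 3 lines were separate, with shUCHL1 lowest. COL16A1 fell there (log2FC -0.31, SE 0.08, edgeR adjusted p = 0.0481), rose in shHSPA8 (log2FC 0.44, SE 0.08, edgeR adjusted p = 0.0129) and was lower in shUCHL1 than in shHSPA8 (log2FC -0.75, SE 0.08, edgeR adjusted p = 0.00249). COL7A1 (gene ID 106503435), the anchoring fibril collagen, was at 12.5 and 15.6 CPM in shCON, 19.4 and 20.2 in shUCHL1, and 21.8 and 20.6 in shHSPA8. Both knockdown lines lay above shCON, and only the shHSPA8 difference passed the test (log2FC 0.59, SE 0.14, edgeR adjusted p = 0.0307, against log2FC 0.49, SE 0.14, edgeR adjusted p = 0.0538 in shUCHL1). COL8A1, a short-chain network collagen, had 199 and 187 CPM in shCON and 129 and 146 CPM in shHSPA8, where it fell (log2FC -0.49, SE 0.10, edgeR adjusted p = 0.0151).

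The 3 chains of type VI collagen, which form beaded filaments, differed from each other in size of change. COL6A3 (gene ID 102169643) stood at 668 and 621 CPM in shCON, 661 and 649 in shUCHL1, and 1479.5 and 1541 in shHSPA8. The shCON and shUCHL1 ranges overlapped and both shHSPA8 libraries lay far above them. COL6A3 rose 2.34-fold in shHSPA8 (log2FC 1.23, SE 0.08, edgeR adjusted p = 0.000145) and had a log2FC of 0.02 (SE 0.08) in shUCHL1. COL6A1 was at 725 and 789.9 CPM in shCON, 775 and 814 in shUCHL1, and 1125 and 1055 in shHSPA8, and rose 1.44-fold in shHSPA8 (log2FC 0.53, SE 0.08, edgeR adjusted p = 0.00664). COL6A2 (gene ID 102191378) was at 347 and 421 CPM in shCON, 312 and 334 in shUCHL1, and 526 and 474 in shHSPA8. Its shHSPA8 libraries were highest, but the difference from shCON did not pass the test (log2FC 0.38, SE 0.11, edgeR adjusted p = 0.0668), while shUCHL1 was lower than shHSPA8 (log2FC -0.63, SE 0.11, edgeR adjusted p = 0.0134). The FPKM ratio of COL6A3 to COL6A1 was 0.380 and 0.330 in shCON, 0.350 and 0.329 in shUCHL1, and 0.546 and 0.593 in shHSPA8, while that of COL6A2 to COL6A1 ran from 0.437 to 0.578 over all libraries. Among all 9 genes, shUCHL1 calls ended under another setting for COL14A1 (adjusted p 0.0597 to 0.136 without shCON replicate 2 or shUCHL1 replicate 1 or 2) and COL16A1 (adjusted p 0.0518 to 0.348 without shCON replicate 2, shUCHL1 replicate 1 or 2 or shHSPA8 replicate 1 or 2, in DESeq2, with library size scaling, with no filter on low counts, in a fit of the 2 lines alone and after a length correction). The shHSPA8 calls that ended were those of COL6A1 (adjusted p = 0.0501 without shHSPA8 replicate 1) and COL7A1 (adjusted p 0.0654 to 0.134 without shCON replicate 1, shUCHL1 replicate 1 or 2 or shHSPA8 replicate 1 or 2, in a fit of the 2 lines alone and after a length correction). Others were those of COL8A1 (adjusted p 0.0531 to 0.108 without shUCHL1 replicate 1 or 2 or shHSPA8 replicate 1 and in a fit of the 2 lines alone) and COL16A1 (adjusted p 0.0529 to 0.0951 without shUCHL1 replicate 1 or 2 or shHSPA8 replicate 1 or 2 and in a fit of the 2 lines alone). Calls between the knockdown lines ended for COL6A1 (adjusted p 0.0966 to 0.185 without shUCHL1 replicate 1 or 2 or shHSPA8 replicate 1) and COL6A2 (adjusted p 0.0826 to 0.147 without shUCHL1 replicate 1 or 2 or shHSPA8 replicate 1). Another was that of COL16A1 (adjusted p = 0.0565 without shUCHL1 replicate 1).

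Fibronectin and the proteoglycans moved in both directions in shUCHL1. In shUCHL1 4 of 9 tested genes rose and 3 fell, and in shHSPA8 5 rose and none fell. These are 44.4% higher and 33.3% lower in shUCHL1, beside 8.54% and 7.15% of all tested genes. In shHSPA8 55.6% were higher, beside 8.66%. FN1 (gene ID 102182645), the cell-adhesive glycoprotein on which collagen fibrils are laid down, stood at 12039 and 10572 CPM in shCON, 5301 and 5173 in shUCHL1, and 12150.1 and 13731 in shHSPA8. Both shUCHL1 libraries lay far below the other 4. FN1 fell 2.16-fold in shUCHL1 (log2FC -1.11, SE 0.10, edgeR adjusted p = 0.000725), was 2.47-fold lower there than in shHSPA8 (log2FC -1.31, SE 0.10, edgeR adjusted p = 0.000579), and did not pass the test in shHSPA8 against shCON (log2FC 0.19, SE 0.10, edgeR adjusted p = 0.235). The FPKM ratio of FN1 to COL1A2 was 1.33 and 1.15 in shCON, 0.521 and 0.499 in shUCHL1, and 0.937 and 1.05 in shHSPA8. PRELP (gene ID 102183894), a leucine-rich protein that ties collagen to basement membrane, was at 18.8 and 22.8 CPM in shCON, 7.39 and 7.31 in shUCHL1, and 29.1 and 26.9 in shHSPA8. It too was lowest in both shUCHL1 libraries. PRELP fell 2.83-fold against shCON (log2FC -1.50, SE 0.14, edgeR adjusted p = 0.000949) and was 3.81-fold lower than in shHSPA8 (log2FC -1.93, SE 0.14, edgeR adjusted p = 0.000566). HAPLN1 (gene ID 102169475), the link protein between versican and hyaluronan, rested on 25 and 20 counts in shCON, 2 and 3 in shUCHL1, and 8 and 16 in shHSPA8. Its lines did not overlap. It fell in shUCHL1 (log2FC -3.15, SE 0.52, edgeR adjusted p = 0.00857), and was lower there than in shHSPA8 (log2FC -2.29, SE 0.59, edgeR adjusted p = 0.0439), fitted values that so few counts leave imprecise.

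VCAN (gene ID 102168630), the large chondroitin sulphate proteoglycan versican, had the largest rise of the class in both knockdown lines. It stood at 364 and 241 CPM in shCON, 804 and 708 in shUCHL1, and 1437 and 2062 in shHSPA8. The 3 lines did not overlap. VCAN rose 2.50-fold in shUCHL1 (log2FC 1.32, SE 0.23, edgeR adjusted p = 0.00982) and 5.78-fold in shHSPA8 (log2FC 2.53, SE 0.24, edgeR adjusted p = 0.000674), and it was lower in shUCHL1 than in shHSPA8 (log2FC -1.21, SE 0.23, edgeR adjusted p = 0.0154). DCN (gene ID 100860944), decorin, which binds fibrils and TGF-beta, was at 449 and 434 CPM in shCON, 907 and 947 in shUCHL1, and 844 and 802 in shHSPA8. All 4 knockdown libraries were above shCON, with shUCHL1 highest. DCN rose 2.10-fold in shUCHL1 (log2FC 1.07, SE 0.08, edgeR adjusted p = 0.000336) and 1.86-fold in shHSPA8 (log2FC 0.90, SE 0.08, edgeR adjusted p = 0.000456). LUM (gene ID 102176393), lumican, a keratan sulphate relative of decorin, stood at 372 and 311 CPM in shCON, 464 and 463 in shUCHL1, and 557 and 587 in shHSPA8. It rose in both lines, by 0.44 in shUCHL1 (SE 0.10, edgeR adjusted p = 0.0274) and by 0.74 in shHSPA8 (SE 0.10, edgeR adjusted p = 0.00343) on the log2 scale, with no overlap with shCON. BGN (gene ID 102183219), biglycan, the closest relative of decorin, followed another order, at 140.1 and 174 CPM in shCON, 108 and 121 in shUCHL1, and 248 and 225 in shHSPA8. Here shUCHL1 was lowest and shHSPA8 highest without overlap. BGN rose in shHSPA8 (log2FC 0.59, SE 0.13, edgeR adjusted p = 0.022), did not pass the test in shUCHL1 (log2FC -0.45, SE 0.13, edgeR adjusted p = 0.0532) and was 2.06-fold lower in shUCHL1 than in shHSPA8 (log2FC -1.04, SE 0.13, edgeR adjusted p = 0.00347). The FPKM ratio of DCN to BGN was 4.99 and 3.97 in shCON, 13.3 and 12.5 in shUCHL1, and 5.55 and 5.83 in shHSPA8. ECM1 (gene ID 102186921), a glycoprotein that binds matrix proteins, was at 5.32 and 6.61 CPM in shCON, 11.2 and 16.0 in shUCHL1, and 11.9 and 9.63 in shHSPA8. All 4 knockdown libraries lay above shCON (log2FC 1.19, SE 0.22, edgeR adjusted p = 0.0131 in shUCHL1, and log2FC 0.85, SE 0.23, edgeR adjusted p = 0.0473 in shHSPA8). FMOD, fibromodulin, stayed under 1.7 CPM in every library and passed no test. Of this class, shUCHL1 calls were lost under another setting for VCAN (adjusted p = 0.0601 without shUCHL1 replicate 1) and LUM (adjusted p 0.183 to 0.19 without shUCHL1 replicate 1 or 2). Others were those of ECM1 (adjusted p = 0.0998 without shUCHL1 replicate 2) and HAPLN1 (adjusted p 0.0597 to 0.0789 without shUCHL1 replicate 1 or 2). Against shCON, shHSPA8 calls were lost for BGN (adjusted p 0.055 to 0.114 without shUCHL1 replicate 1 or 2 or shHSPA8 replicate 1 or 2 and in a fit of the 2 lines alone) and ECM1 (adjusted p 0.0513 to 0.202 without shCON replicate 1, shUCHL1 replicate 1 or 2 or shHSPA8 replicate 1 or 2, with library size scaling, with no filter on low counts and in a fit of the 2 lines alone). Between the knockdown lines, calls were lost for VCAN (adjusted p 0.0568 to 0.106 without shUCHL1 replicate 1 or 2 or shHSPA8 replicate 2) and BGN (adjusted p = 0.0533 without shUCHL1 replicate 1). Another was that of HAPLN1 (adjusted p 0.053 to 0.253 without shUCHL1 replicate 1 or 2 or shHSPA8 replicate 1 or 2, in DESeq2 and with no filter on low counts).

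Genes of elastic fibres and microfibrils rose in shHSPA8 in 5 of 10 cases and fell in 1. Of all tested genes 8.66% rose and 6.02% fell there. In shUCHL1 2 of the 10 rose and 1 fell, beside 8.54% and 7.15% of all tested genes. LTBP1 (gene ID 102190794), which anchors latent TGF-beta to the matrix, stood at 84.1 and 66.8 CPM in shCON, 244 and 233 in shUCHL1, and 166 and 195 in shHSPA8. All knockdown libraries lay above shCON and shUCHL1 was highest. LTBP1 rose 3.16-fold with the UCHL1 hairpin (log2FC 1.66, SE 0.14, edgeR adjusted p = 0.000551) and 2.39-fold in shHSPA8 (log2FC 1.26, SE 0.14, edgeR adjusted p = 0.00123). The related LTBP2, at 643 and 669.8 CPM in shCON, 615 and 616 in shUCHL1, and 874 and 877 in shHSPA8, rose in shHSPA8 by 0.42 on the log2 scale (SE 0.07, edgeR adjusted p = 0.00971). MFAP5 (gene ID 102177874), a small microfibril glycoprotein, stood at 0.760 and 0.918 CPM in shCON, 0.977 and 0.839 in shUCHL1, and 4.43 and 5.17 in shHSPA8. These rest on 12 and 15 counts in shCON against 70 and 80 in shHSPA8. The shCON and shUCHL1 ranges overlapped. MFAP5 rose 5.67-fold in shHSPA8 (log2FC 2.50, SE 0.24, edgeR adjusted p = 0.000713) and was 5.25-fold lower in shUCHL1 than in shHSPA8 (log2FC -2.39, SE 0.23, edgeR adjusted p = 0.0015). MFAP4, another microfibril-associated gene, did not pass the test in shHSPA8 (log2FC 0.98, SE 0.28, edgeR adjusted p = 0.0622).

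The fibulins, which bridge elastin, fibronectin and basement membrane, went different ways. FBLN1 (gene ID 102177315) stood at 92.9 and 107 CPM in shCON, 78.7 and 79.6 in shUCHL1, and 37.9 and 35.2 in shHSPA8. It was the matrix gene with the largest fall in shHSPA8, 2.74-fold (log2FC -1.45, SE 0.11, edgeR adjusted p = 0.000263), and the only one called higher in shUCHL1 than in shHSPA8 (log2FC 1.11, SE 0.11, edgeR adjusted p = 0.0015). FBLN2 (gene ID 102171934) was at 31.5 and 41.4 CPM in shCON, 64.1 and 64.6 in shUCHL1, and 84.8 and 73.4 in shHSPA8. Both knockdown lines lay above shCON. FBLN2 rose in shUCHL1 (log2FC 0.82, SE 0.15, edgeR adjusted p = 0.0109) and in shHSPA8 (log2FC 1.12, SE 0.15, edgeR adjusted p = 0.00292). FBLN5 passed no test, with 16.0 to 20.8 CPM over all libraries. EMILIN1 (gene ID 102180604), which joins elastin to microfibrils, was at 274 and 319 CPM in shCON, 173 and 181 in shUCHL1, and 383 and 330.0 in shHSPA8. Here shUCHL1 was lowest, below shCON (log2FC -0.74, SE 0.11, edgeR adjusted p = 0.00595) and below shHSPA8 (log2FC -1.01, SE 0.11, edgeR adjusted p = 0.00249). FBN1 (gene ID 102180397), fibrillin-1, the main protein of microfibrils, stood at 797 and 583 CPM in shCON, 1001 and 926 in shUCHL1, and 1032 and 1357 in shHSPA8. The knockdown libraries were all above shCON, and the difference passed the test in shHSPA8 (log2FC 0.79, SE 0.18, edgeR adjusted p = 0.0254) but not in shUCHL1 (log2FC 0.48, SE 0.18, edgeR adjusted p = 0.114). ELN, the elastin gene, was at 0.905 to 2.63 CPM, highest in the 2 shUCHL1 libraries, and passed no test (log2FC 0.96, SE 0.30, edgeR adjusted p = 0.0738 in shUCHL1 against shCON). For this class, shUCHL1 calls did not hold in FBLN2 (adjusted p 0.0859 to 0.0862 without shUCHL1 replicate 1 or 2) and EMILIN1 (adjusted p 0.0552 to 0.0752 without shUCHL1 replicate 1 or 2). Calls in shHSPA8 did not hold in FBN1 (adjusted p = 0.113 without shHSPA8 replicate 2) and LTBP2 (adjusted p 0.0593 to 0.104 without shUCHL1 replicate 1 or 2 or shHSPA8 replicate 1 or 2, in a fit of the 2 lines alone and after a length correction). Against shHSPA8, the shUCHL1 call did not hold in LTBP2 (adjusted p 0.0982 to 0.106 without shUCHL1 replicate 1 or 2).

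The enzymes and chaperones rose in shHSPA8 in 7 of 12 cases with none lower, and in shUCHL1 2 rose and 2 fell. Of the class 58.3% rose in shHSPA8, beside 8.66% of all tested genes. In shUCHL1 16.7% rose and 16.7% fell, beside 8.54% and 7.15%. P4HA1 (gene ID 102179448), a catalytic subunit of prolyl 4-hydroxylase, stood at 266 and 212 CPM in shCON, 371 and 369 in shUCHL1, and 394 and 432 in shHSPA8. All 4 knockdown libraries lay above shCON. P4HA1 rose 1.55-fold in shUCHL1 (log2FC 0.63, SE 0.12, edgeR adjusted p = 0.0134) and 1.73-fold in shHSPA8 (log2FC 0.79, SE 0.12, edgeR adjusted p = 0.00532). The subunit P4HA3 was at 409.8 and 468 CPM in shCON, 307 and 311 in shUCHL1, and 374 and 347 in shHSPA8. It was lower in both, with a fall called in shUCHL1 (log2FC -0.51, SE 0.09, edgeR adjusted p = 0.0126) and not in shHSPA8 (log2FC -0.28, SE 0.09, edgeR adjusted p = 0.0888). The FPKM ratio of P4HA3 to P4HA1 was 2.25 and 3.12 in shCON, 1.19 and 1.21 in shUCHL1, and 1.33 and 1.14 in shHSPA8. Of the lysyl hydroxylases, PLOD2 (gene ID 102176366), which acts on collagen telopeptides, was at 257 and 194 CPM in shCON, 266 and 258 in shUCHL1, and 337 and 398 in shHSPA8. It rose in shHSPA8 (log2FC 0.70, SE 0.14, edgeR adjusted p = 0.019), where both libraries lay above all others, as did PLOD1 (0.54 on the log2 scale, SE 0.10, edgeR adjusted p = 0.0134). SERPINH1, the collagen chaperone HSP47, passed no test, at 1582 and 1883 CPM in shCON, 1731 and 1760.0 in shUCHL1, and 2120.4 and 1928 in shHSPA8, and its shCON and shUCHL1 ranges overlapped.

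Of the enzymes outside the cell, LOX (gene ID 102169472), the founding lysyl oxidase, stood at 111 and 84.8 CPM in shCON, 135 and 129 in shUCHL1, and 149 and 189 in shHSPA8. Its knockdown libraries were all above shCON, and the rise passed the test in shHSPA8 (log2FC 0.79, SE 0.16, edgeR adjusted p = 0.018) but not in shUCHL1 (log2FC 0.43, SE 0.16, edgeR adjusted p = 0.119). LOXL2 rose in both, by 0.41 in shUCHL1 (SE 0.09, edgeR adjusted p = 0.0216) and 0.44 in shHSPA8 (SE 0.09, edgeR adjusted p = 0.0172) on the log2 scale. LOXL4 (gene ID 102174272) was scarce, with 5 and 6 counts in shCON, 13 and 17 in shUCHL1 and 21 and 13 in shHSPA8. It rose in shHSPA8 (log2FC 1.64, SE 0.41, edgeR adjusted p = 0.0402) from that low level. LOXL1, at 392 to 582 CPM, was lower in shUCHL1 than in shHSPA8 (log2FC -0.45, SE 0.11, edgeR adjusted p = 0.036) and LOXL3 passed no test. PCOLCE (gene ID 102181355), which speeds removal of the procollagen C-propeptide, stood at 222 and 291 CPM in shCON, 176 and 180.3 in shUCHL1, and 364 and 325 in shHSPA8. The lines did not overlap and shUCHL1 was lowest. PCOLCE fell there (log2FC -0.53, SE 0.13, edgeR adjusted p = 0.0397) and was 1.93-fold lower than in shHSPA8 (log2FC -0.95, SE 0.14, edgeR adjusted p = 0.00577). FAP (gene ID 102183462), a cell-surface protease of activated fibroblasts that cuts denatured collagen, was at 13.7 and 13.8 CPM in shCON, 14.4 and 14.7 in shUCHL1, and 28.6 and 26.8 in shHSPA8. The shHSPA8 libraries stood apart from the other 4. FAP rose 2.02-fold there (log2FC 1.01, SE 0.11, edgeR adjusted p = 0.00125) and had a log2FC of 0.08 (SE 0.11) in shUCHL1. Under other settings the shUCHL1 calls ended for LOXL2 (adjusted p 0.193 to 0.204 without shUCHL1 replicate 1 or 2) and P4HA1 (adjusted p 0.0987 to 0.103 without shUCHL1 replicate 1 or 2). Others were those of P4HA3 (adjusted p 0.117 to 0.133 without shUCHL1 replicate 1 or 2) and PCOLCE (adjusted p 0.0508 to 0.231 without shCON replicate 2, shUCHL1 replicate 1 or 2 or shHSPA8 replicate 1 or 2, with library size scaling and in a fit of the 2 lines alone). The shHSPA8 calls ended for LOX (adjusted p = 0.0888 without shHSPA8 replicate 2) and LOXL2 (adjusted p 0.0733 to 0.118 without shUCHL1 replicate 1 or 2 or shHSPA8 replicate 1 and in a fit of the 2 lines alone). Others were those of LOXL4 (adjusted p 0.0547 to 0.219 without shCON replicate 1 or 2, shUCHL1 replicate 1 or 2 or shHSPA8 replicate 1 or 2, in DESeq2, with no filter on low counts and in a fit of the 2 lines alone) and PLOD1 (adjusted p 0.0531 to 0.0858 without shUCHL1 replicate 1 or 2 or shHSPA8 replicate 1 and in a fit of the 2 lines alone). A further one was that of PLOD2 (adjusted p = 0.0971 without shHSPA8 replicate 2). Calls of shUCHL1 against shHSPA8 ended for LOXL1 (adjusted p 0.08 to 0.268 without shUCHL1 replicate 1 or 2 or shHSPA8 replicate 1 or 2 and with library size scaling) and PLOD1 (adjusted p 0.0817 to 0.271 without shUCHL1 replicate 1 or 2 or shHSPA8 replicate 1 or 2 and with library size scaling). Others were those of PCOLCE (adjusted p 0.0614 to 0.0722 without shUCHL1 replicate 1 or 2) and FAP (adjusted p 0.0519 to 0.0565 without shUCHL1 replicate 1 or 2).

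**Figure D3:**
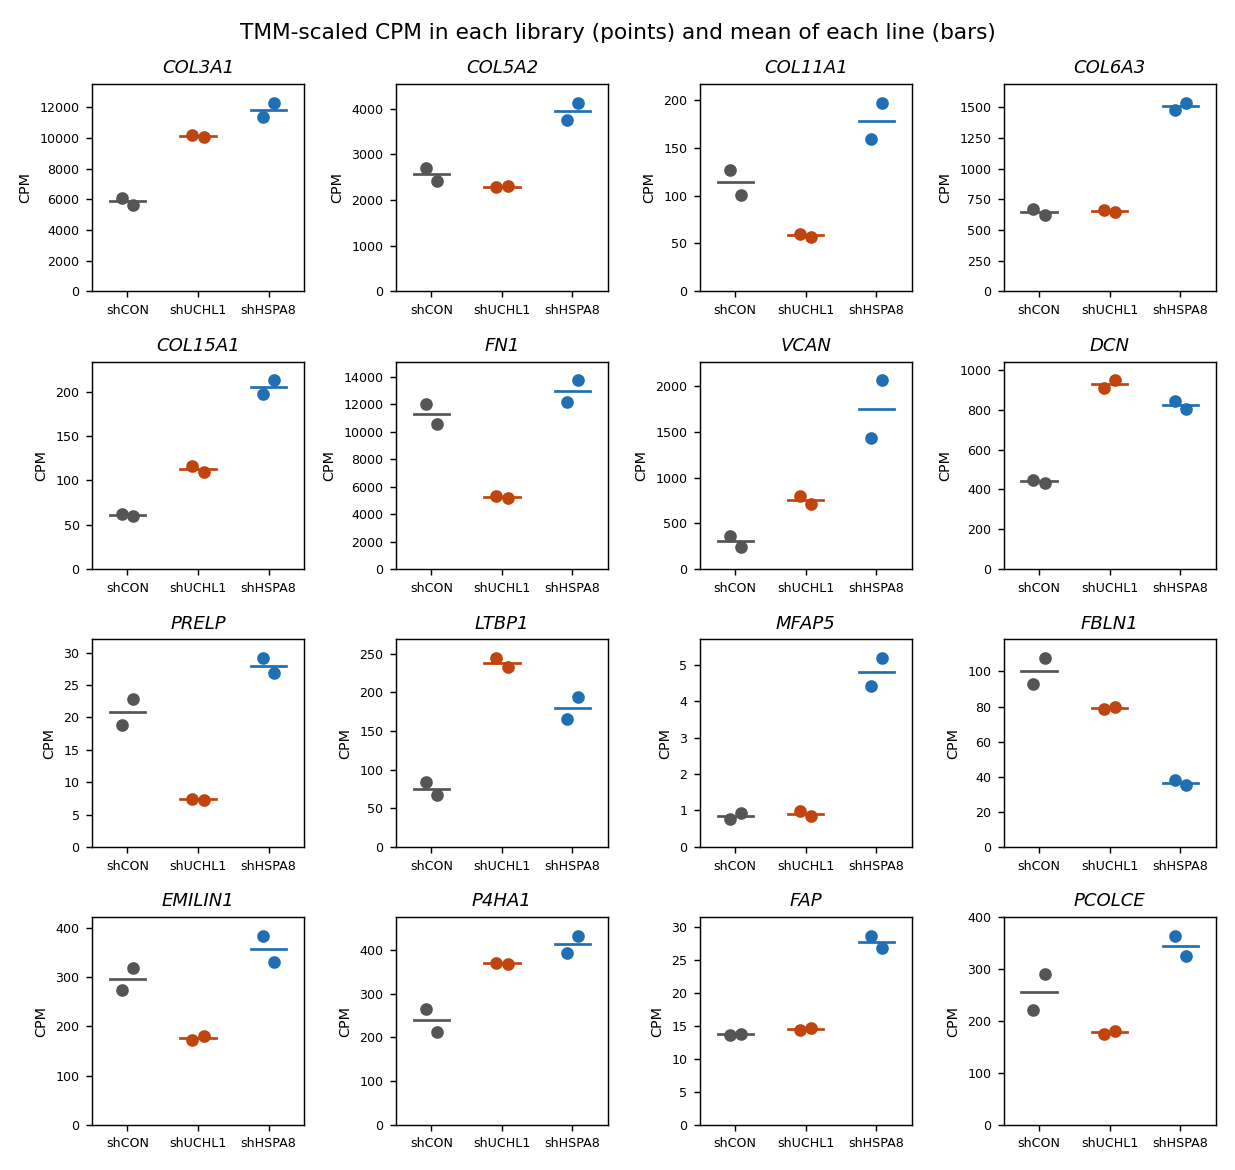
CPM (vertical axis from 0) of 16 matrix genes in each of the 6 libraries (points) with the mean of each line (bars). COL3A1, DCN, LTBP1 and P4HA1 are higher in all knockdown libraries than in shCON, FN1, PRELP and COL11A1 are lowest in shUCHL1, and COL6A3, MFAP5 and FAP are highest in shHSPA8.

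Some patterns over the 3 comparisons were shared by several matrix genes. Higher in both knockdown lines were 11 genes: COL3A1, COL5A3, COL15A1, VCAN, DCN, LUM, ECM1, LTBP1, FBLN2, P4HA1 and LOXL2. Of these, COL15A1 and VCAN also differed between the knockdown lines. The 10 genes BGN, COL1A2, COL5A1, COL5A2, COL6A1, COL6A3, FAP, LTBP2, MFAP5 and PLOD1 were higher in shHSPA8 than in shCON and lower in shUCHL1 than in shHSPA8. None of those 10 was called in shUCHL1 against shCON. The 5 genes FN1, PRELP, HAPLN1, EMILIN1 and PCOLCE were lower in shUCHL1 than in either other line. None of these 5 was called in shHSPA8 against shCON. COL11A1 and COL16A1 were the 2 called in opposite directions against shCON, and they too were lower in shUCHL1 than in shHSPA8. Calls that held in every alternative fit numbered 7 of 20 in shUCHL1 (COL3A1, COL5A3, COL15A1, DCN, LTBP1, FN1 and PRELP). They numbered 16 of 30 in shHSPA8, and 9 of 22 where shUCHL1 was set against shHSPA8. No called matrix gene changed sign in any of those fits.

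Long transcripts differed between libraries of a line, and many matrix transcripts are long. The median length implied by counts and FPKM was 3.95 kb over 43 of the tested matrix genes and 2.48 kb over 11595 tested genes, and 10 of the 43 reached 6 kb. Among all genes of 6 kb or more, replicate 1 lay above replicate 2 by a median of 0.35 in shCON and 0.08 in shUCHL1 and below it by 0.29 in shHSPA8 on the log2 scale. Of the 10 long matrix genes, 8 had replicate 1 higher in shCON and replicate 2 higher in shHSPA8, VCAN (10.3 kb), FBN1 and COL12A1 among them. LTBP2 did so in shHSPA8 and not in shCON, and COL7A1 went the opposite way in both. COL12A1, which stood at 1586 and 1138 CPM in shCON, 1137 and 1046 in shUCHL1, and 1221 and 1653 in shHSPA8, passed no test as fitted. After a correction for length fitted within each library, COL12A1 was lower in shUCHL1 (log2FC -0.42, edgeR adjusted p = 0.00173) and FBN1 higher (0.39, edgeR adjusted p = 0.00294). The correction moved the count of matrix genes called lower in shUCHL1 from 8 to 13, while over all tested genes it moved that count from 905 to 1266.

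Other genes of the same pathways were read from 5 further lists, in which 75 genes were tested. Of these, 11 rose and 6 fell in shUCHL1, 21 rose and 6 fell in shHSPA8, and 7 were higher and 22 lower in shUCHL1 than in shHSPA8. In shUCHL1 these are 14.7% higher and 8.0% lower, beside 8.54% and 7.15% of all tested genes. The shares in shHSPA8 are 28.0% and 8.0%, beside 8.66% and 6.02%, and between the knockdown lines 9.3% and 29.3%, beside 6.20% and 8.35%. The list for folding, trimming and secretion of collagen had 10 of 27 genes higher and 3 lower in shHSPA8, and 2 higher and 1 lower in shUCHL1. These are 37.0% and 11.1% in shHSPA8, and 7.4% and 3.7% in shUCHL1. PCOLCE2, a relative of PCOLCE, stood at 222 and 234 CPM in shCON, 262 and 273 in shUCHL1, and 459.8 and 455 in shHSPA8. It rose in shHSPA8 by 1.00 (SE 0.08, edgeR adjusted p = 0.000324) on the log2 scale. Both shHSPA8 libraries lay above all others, as they did for CRTAP, a subunit of the prolyl 3-hydroxylase complex, which was lower in shUCHL1 than in shHSPA8 (log2FC -0.83, SE 0.08, edgeR adjusted p = 0.0014). The tolloid proteases, relatives of the procollagen C-proteinase BMP1, split. TLL1 was at 42.0 and 30.0 CPM in shCON, 14.9 and 13.1 in shUCHL1, and 8.03 and 9.57 in shHSPA8. It fell in shUCHL1 (log2FC -1.36, SE 0.19, edgeR adjusted p = 0.00401) and in shHSPA8 (log2FC -2.03, SE 0.20, edgeR adjusted p = 0.000755). TLL2 was at 9.18 and 11.1 CPM in shCON, 12.3 and 11.8 in shUCHL1, and 33.9 and 33.1 in shHSPA8. It rose in shHSPA8 by 1.73 (SE 0.13, edgeR adjusted p = 0.000275). The N-proteinase ADAMTS14 fell in shHSPA8 (log2FC -0.93, SE 0.11, edgeR adjusted p = 0.00203). P4HB, the partner subunit of the prolyl 4-hydroxylases, rose by 0.37 in shUCHL1 (SE 0.08, edgeR adjusted p = 0.023) and by 0.38 in shHSPA8 (SE 0.08, edgeR adjusted p = 0.0211) on the log2 scale. BMP1 rose by 0.38 in shUCHL1 (SE 0.10, edgeR adjusted p = 0.0467) and by 0.79 in shHSPA8 (SE 0.10, edgeR adjusted p = 0.00284), and was lower in shUCHL1 than in shHSPA8 (log2FC -0.41, SE 0.10, edgeR adjusted p = 0.038). Calls in shUCHL1 ended under another setting for P4HB (adjusted p 0.179 to 0.254 without shUCHL1 replicate 1 or 2) and BMP1 (adjusted p 0.0595 to 0.296 without shCON replicate 1, shUCHL1 replicate 1 or 2 or shHSPA8 replicate 1 or 2, in DESeq2, with RLE scaling, with no filter on low counts and in a fit of the 2 lines alone). The shHSPA8 call of P4HB ended (adjusted p 0.0818 to 0.111) without shUCHL1 replicate 1 or 2 or shHSPA8 replicate 1 or 2 and in a fit of the 2 lines alone. BMP1 lost its call between the knockdown lines (adjusted p 0.0723 to 0.272) without any 1 of their 4 libraries and with library size scaling.

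Of 8 tested collagen receptors and uptake genes, 2 rose and 2 fell in shUCHL1, beside 8.54% and 7.15% of all tested genes. In shHSPA8 3 of the 8 rose and 1 fell, beside 8.66% and 6.02%. CTSK, a lysosomal protease that degrades collagen, stood at 11.3 and 9.73 CPM in shCON, 16.4 and 15.9 in shUCHL1, and 39.3 and 46.6 in shHSPA8. It rose in shHSPA8 by 2.03 (SE 0.14, edgeR adjusted p = 0.000183) and less in shUCHL1, by 0.62 (SE 0.14, edgeR adjusted p = 0.0268), on the log2 scale, and the knockdown lines differed (log2FC -1.41, SE 0.13, edgeR adjusted p = 0.0014). MRC2, the uptake receptor for collagen fragments, rose in shHSPA8 by 1.21 (SE 0.10, edgeR adjusted p = 0.000343). The collagen-binding integrin chain ITGA2 was at 30.3 and 22.3 CPM in shCON, 10.3 and 10.1 in shUCHL1, and 23.4 and 30.7 in shHSPA8. It fell in shUCHL1 (log2FC -1.37, SE 0.20, edgeR adjusted p = 0.00484), with both shUCHL1 libraries below the other 4. ITGA10 rose there by 1.08 (SE 0.20, edgeR adjusted p = 0.0119), and their common partner ITGB1 fell (log2FC -0.63, SE 0.13, edgeR adjusted p = 0.0164). ITGA1 rose in shHSPA8 by 1.03 (SE 0.21, edgeR adjusted p = 0.019) and the receptor kinase DDR1 fell (log2FC -0.51, SE 0.11, edgeR adjusted p = 0.0199). Calls in shUCHL1 ended for ITGA10 (adjusted p 0.0872 to 0.0987 without shUCHL1 replicate 1 or 2) and ITGB1 (adjusted p 0.103 to 0.11 without shUCHL1 replicate 1 or 2). Another was that of CTSK (adjusted p 0.0774 to 0.181 without shCON replicate 2 or shUCHL1 replicate 1 or 2). Calls of receptors in shHSPA8 ended for ITGA1 (adjusted p = 0.0836 without shHSPA8 replicate 2) and DDR1 (adjusted p 0.0652 to 0.129 without shUCHL1 replicate 1 or 2 or shHSPA8 replicate 2 and in a fit of the 2 lines alone).

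Enzymes that make glycosaminoglycan chains and hyaluronan had 2 of 22 higher and 3 lower in shUCHL1, and 3 higher and 1 lower in shHSPA8. Of this list 9.1% was higher in shUCHL1 and 4.5% lower in shHSPA8, near the shares of 8.54% and 6.02% over all tested genes. The share lower in shUCHL1 was 13.6%, beside 7.15%, and that higher in shHSPA8 was 13.6%, beside 8.66%. XYLT1, a xylosyltransferase of the kind that starts the chains of versican and decorin, stood at 9.18 and 9.37 CPM in shCON, 28.1 and 26.0 in shUCHL1, and 48.7 and 59.7 in shHSPA8. The 3 lines were separate in the same order as for VCAN and COL15A1. XYLT1 rose in shUCHL1 by 1.54 (SE 0.14, edgeR adjusted p = 0.000819) and in shHSPA8 by 2.55 (SE 0.14, edgeR adjusted p = 7.77e-05). The related XYLT2 was more abundant in shCON, at 57.6 and 68.9 CPM. It passed no test, with log2FC 0.03 in shUCHL1 and 0.04 in shHSPA8. HAS2, a hyaluronan synthase, was at 110.0 and 82.1 CPM in shCON, 60.5 and 54.7 in shUCHL1, and 118 and 164 in shHSPA8. It fell in shUCHL1 (log2FC -0.74, SE 0.19, edgeR adjusted p = 0.0433) and was lower there than in shHSPA8 (log2FC -1.29, SE 0.19, edgeR adjusted p = 0.00704). The chondroitin synthase CHSY3 fell in shUCHL1 (log2FC -1.18, SE 0.15, edgeR adjusted p = 0.00318) and the sulphotransferase CHST15 rose by 0.86 (SE 0.11, edgeR adjusted p = 0.0029). In shHSPA8, HAS1 rose by 1.90 (SE 0.28, edgeR adjusted p = 0.00455), the dermatan sulphate epimerase relative DSEL by 0.81 (SE 0.19, edgeR adjusted p = 0.0298), and CHST7 fell (log2FC -1.17, SE 0.14, edgeR adjusted p = 0.00223). For these genes the shUCHL1 calls ended in HAS2 (adjusted p 0.053 to 0.215 without shCON replicate 1 or shUCHL1 replicate 1 or 2 and with library size scaling). The shHSPA8 call ended in DSEL (adjusted p 0.0544 to 0.136 without shUCHL1 replicate 1 or 2 or shHSPA8 replicate 2 and in a fit of the 2 lines alone). Between the knockdown lines, the call was lost for HAS2 (adjusted p 0.0547 to 0.0669 without shUCHL1 replicate 1 or 2).

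Of 9 further tested collagens, 2 rose in shUCHL1 and 1 in shHSPA8, and none fell. The higher shares are 22.2% in shUCHL1, beside 8.54% of all tested genes, and 11.1% in shHSPA8, near the 8.66% of all tested genes. COL21A1 was at 0.633 and 0.306 CPM in shCON, 4.89 and 4.14 in shUCHL1, and 0.695 and 1.49 in shHSPA8. It rose in shUCHL1 by 3.25 (SE 0.40, edgeR adjusted p = 0.00283), where both libraries stood above the other 4. COL17A1 rose there by 1.86 (SE 0.43, edgeR adjusted p = 0.0283) from under 0.5 CPM, and COL27A1, a fibril-forming chain, rose in shHSPA8 by 1.73 (SE 0.13, edgeR adjusted p = 0.000313). Of 9 further elastic fibre and leucine-rich genes, 3 rose and none fell in shUCHL1, and 4 rose and 1 fell in shHSPA8. In shUCHL1 33.3% were higher, beside 8.54% of all tested genes. In shHSPA8 44.4% were higher and 11.1% lower, beside 8.66% and 6.02%. EMILIN2 was at 9.50 and 11.0 CPM in shCON, 43.2 and 43.9 in shUCHL1, and 38.5 and 36.5 in shHSPA8. It rose in shUCHL1 by 2.09 (SE 0.12, edgeR adjusted p = 0.000181) and in shHSPA8 by 1.87 (SE 0.12, edgeR adjusted p = 0.000145), whereas its relative EMILIN1 fell in shUCHL1. EFEMP1, fibulin-3, rose in shUCHL1 by 0.67 (SE 0.12, edgeR adjusted p = 0.0107) and in shHSPA8 by 1.28 (SE 0.12, edgeR adjusted p = 0.00062). The link protein HAPLN3 rose by 1.68 in shUCHL1 (SE 0.35, edgeR adjusted p = 0.019) and by 1.47 in shHSPA8 (SE 0.36, edgeR adjusted p = 0.036). HAPLN4 rose in shHSPA8 by 1.46 (SE 0.12, edgeR adjusted p = 0.000395) and FBLN7 fell in shHSPA8 (log2FC -0.77, SE 0.17, edgeR adjusted p = 0.0256). In these lists the shUCHL1 calls were lost for COL17A1 (adjusted p 0.0655 to 0.19 without shCON replicate 1 or 2 or shUCHL1 replicate 2 and in DESeq2) and EFEMP1 (adjusted p 0.0669 to 0.131 without shUCHL1 replicate 1 or 2). Another was that of HAPLN3 (adjusted p 0.0645 to 0.151 without shCON replicate 2 or shUCHL1 replicate 1 or 2 and in DESeq2). In shHSPA8 HAPLN3 lost its call (adjusted p 0.0632 to 0.184) without any 1 library, in DESeq2 and in a fit of the 2 lines alone. The shHSPA8 call was also lost for FBLN7 (adjusted p 0.062 to 0.117 without shUCHL1 replicate 1 or 2 or shHSPA8 replicate 1 or 2 and in a fit of the 2 lines alone).

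**Figure D4:**
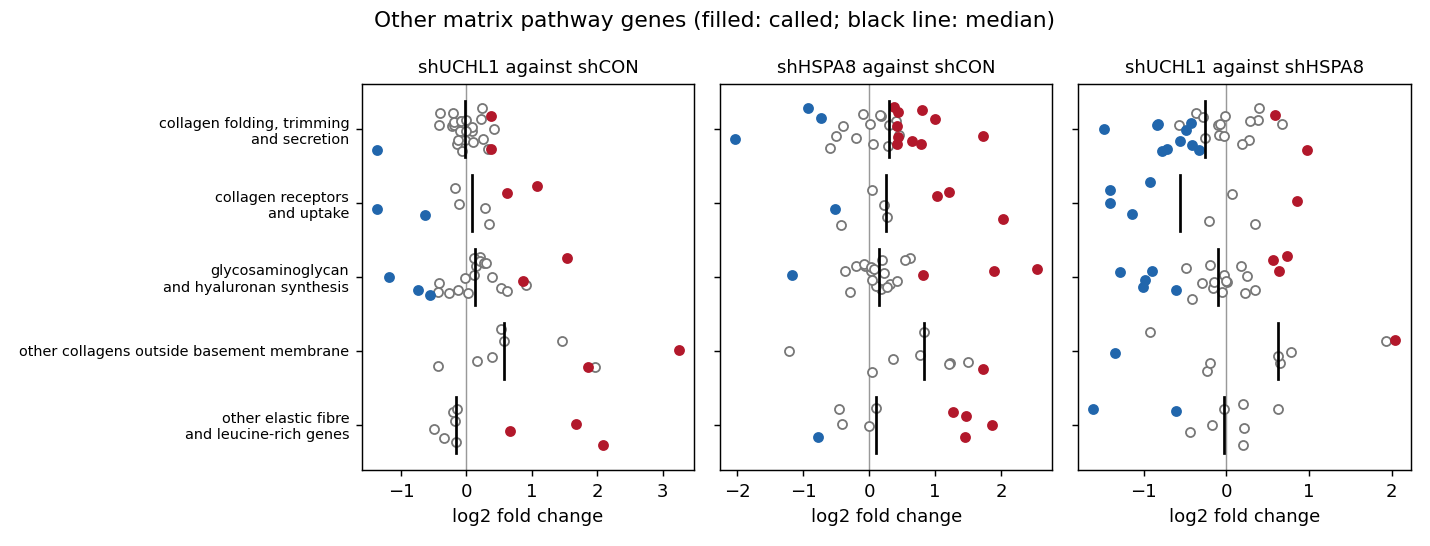
Log2 fold change (horizontal axis) of the 75 tested genes of 5 further lists in the 3 comparisons, with vertical scatter added to separate points and the horizontal range set for each panel. Filled points passed the test (red higher, blue lower), and the black line is the median of the list. Of the collagen folding list 10 of 27 points are red in the shHSPA8 panel and 2 in the shUCHL1 panel.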

How the data were processed

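Messenger RNA was sequenced in 6 libraries, grouped by their sample titles. Per the submitters' processing notes, Trimmomatic 0.36 was used. For aligner, counter, build and strand: not given in the sources used here, so that reads shared by related genes may have been split in ways not recorded. The authors deposited 1 table of 33229 entries, 16599 with values. Per the file headers it holds an FPKM value and a read count per library. Between 1014 and 1117 counts per library have decimals, so the deposited counts are taken to be estimated counts, the authors' counter not being named. They were rounded before testing. The deposited log2 ratios and p-values were not used, since nothing states their test. The FPKM values deposited by the authors served for levels between genes and for implied transcript length.

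Counts were tested with edgeR 4.0.16 in R 4.3.3 (filterByExpr, TMM, glmQLFit and glmQLFTest with group as the only term, all 6 libraries sharing 1 estimate of the spread). Benjamini-Hochberg adjustment ran over 12665 genes per comparison, with a threshold of 0.05. The SE is the size of the log2 fold change divided by the square root of F. CPM values use TMM factors of 0.967 to 1.04. The chi-square between replicate counts, divided by its degrees of freedom, was 22.7 for shCON, 2.39 for shUCHL1 and 12.1 for shHSPA8, above sampling noise, and every library was kept. Alternatives were DESeq2 1.42.0, RLE scaling, library size scaling, no filter on low counts, a fit of 2 lines, the replicate block, a loess correction for length (span 0.5) and leaving out each library. The scripts were tested on simulated data. Members and lists were chosen with earlier results of these data known. Values in every library are given for genes called with at least a 1.5-fold difference in at least 1 comparison, and the others by range or as context. Of each further list, up to 4 called genes per comparison with the lowest p could be named, and not all are described. No sequences or coordinates are given.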

Additional observations from a re-analysis of the deposited data

How the results depend on the processing

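For the 31 matrix genes called with at least 1.5-fold in at least 1 comparison, 1062 values under the alternatives kept their side of the threshold. A further 105 lost a call and 41 gained one. No value called in the main fit or in the alternative changed sign. Values called in neither fit count among the 1062 even where their sign changed. Leaving out 1 library at a time gave 6 to 15 matrix genes higher and 2 to 11 lower in shUCHL1 against shCON (12 and 8 with all libraries), 18 to 32 and 1 to 3 in shHSPA8 against shCON (28 and 2), and 1 to 2 and 8 to 25 in shUCHL1 against shHSPA8 (1 and 21). Fewer samples entered those fits. The length correction gave 13 lower in shUCHL1 against shCON and 3 higher in shUCHL1 against shHSPA8. A fit of the 2 lines alone gave 19 higher and 1 lower in shHSPA8 against shCON. Over all tested genes that fit gave 725 higher and 379 lower, against 1097 and 762 with all 6 libraries. In shUCHL1 against shHSPA8 it gave 3 matrix genes higher, beside 1376 of all tested genes, and library size scaling gave 4 higher there. Library size scaling moved the median of all genes in that comparison to 0.12, and it gave 1339 genes higher and 740 lower, against 785 and 1058 with TMM scaling. In shUCHL1 against shCON it gave 1368 and 641, against 1082 and 905. With the replicate number as a block, 10 matrix genes were higher and 6 lower in shUCHL1, 22 and 1 in shHSPA8, and 1 and 16 between the knockdown lines. Over all tested genes the block gave 723 and 507, 747 and 384, and 365 and 558 in the same order. The ranges of adjusted p given with lost calls leave the block out. In shUCHL1 the block ended the calls of COL16A1, LOXL2, LUM and PCOLCE. In shHSPA8 it ended those of COL7A1, COL8A1, COL11A1, COL16A1, ECM1, LOXL2 and LOXL4. Between the knockdown lines it ended those of COL1A2, COL6A1, HAPLN1, LOXL1 and PLOD1. Each of these calls also ended under another setting. Nothing in the labels says whether libraries with the same replicate number were handled together. Deviations of such libraries correlated at 0.22 (shCON and shUCHL1), -0.50 (shCON and shHSPA8) and -0.20 (shUCHL1 and shHSPA8), with no common sign. With 2 libraries per line, differences smaller than the library spread were not detectable. The cause of the other shifts was not tested.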
